A study of Bos taurus with 8 samples.

Results

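The circadian clock genes described here are 10 genes of the core clock and its direct output: CLOCK, ARNTL, PER1, PER2, PER3, CRY1, NR1D1, NR1D2, DBP and HLF. They were measured in the endometrium of 8 cows, 4 whose uterine horns had received 5 mM methylglyoxal and 4 that had received 0 mM. Each horn was given 25 mL on day 1 after standing estrus (day 0), and the horn that lay ipsilateral to the corpus luteum was biopsied on day 7. Methylglyoxal is a reactive by-product of glycolysis that glycates proteins. Every biopsy came from a different cow and had an Agilent array of its own, read in 1 colour. The hour of the biopsies is not given in the sources used here, nor are the breed and age of the cows.

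The members were all noncontrol probes whose gene name or description in the array files names one of the 10 genes, which gave 23 probes out of 43653. Of these, 21 carried the symbol as their gene name, and 2 for PER3 were recognised from their descriptions, 1 of them by the gene's full name only. A further 2 probes, listed under LOC identifiers, were added because a RefSeq gene table assigns their accession or gene identifier to CLOCK, which made 25 probes. Of the 25 probes, 19 passed the filter on dim signals (a signal marked as well above background in 4 or more cows) and 6 did not. All 10 genes kept at least 1 probe, and the probe with the highest mean over the 8 arrays stood for its gene. Each value is the log2 signal minus the log2 75th percentile of its array, differences are 5 mM minus 0 mM, and group values are means ± SD over 4 cows. Probe brightness depends on the probe's own sequence, so levels were compared between cows and not between genes.

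The vertebrate clock is a feedback loop of transcription. The proteins CLOCK and ARNTL (also called BMAL1) bind together to E-box elements and switch on the PER and CRY genes, whose products return to the nucleus and inhibit them. A further loop runs through NR1D1 and NR1D2, the REV-ERB nuclear receptors, which are switched on by the same pair and repress ARNTL, and the factors DBP and HLF of the PAR bZIP family carry the rhythm to output genes. Such clocks run in most peripheral tissues, the uterus included, so that PER2, NR1D1 and DBP usually reach their highest levels within the same part of the day and ARNTL in the opposite part.

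The probes on which the covariation results below turn are shown 5′ to 3′ in lower case, as the array files give them. Their positions refer to build HGSC Btau_3.1, and the DBP probe is shown by its first 30 bases. All 4 lie on the minus strand, at chr3:125216387-125219291 for PER2, chr19:41656722-41656781 for NR1D1, chr15:38139970-38140029 for ARNTL and chr18:55090582-55090640 for DBP.
PER2: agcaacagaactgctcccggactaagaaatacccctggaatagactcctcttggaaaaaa
NR1D1: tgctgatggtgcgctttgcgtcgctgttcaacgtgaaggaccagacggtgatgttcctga
ARNTL: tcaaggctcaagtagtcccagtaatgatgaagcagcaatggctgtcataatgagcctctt
DBP: ggggaaggtcctcagtgtgccccccatcct
The 60 bases of the PER2 probe are spread over a span of 2905 bases, so the probe matches spliced sequence. No genome of that build was used here, and exons and untranslated regions are therefore not given.

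The 3 CLOCK probes are shown because they decide what is read as CLOCK. They lie on chromosome 6, minus strand, at chr6:73455246-73455305 (listed as LOC100300400), chr6:73458804-73462695 (listed as LOC540334) and chr6:73478099-73478158 (listed as CLOCK), and their first 30 bases were as follows.
LOC100300400: atgatggaatagtaatttcagaatgttgtg
LOC540334: tcagattttctcaaggtcagcaacttgtga
CLOCK: caagcattcagtcccgctcagcttactgct
The probe listed as CLOCK was not well above background on any of the 8 arrays, with values between -9.14 and -7.50. The LOC100300400 probe was well above background on all 8, and it stands for CLOCK below.

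The arrays were of like quality, with 68.3% to 73.3% of probes well above background, a 75th percentile of 1032 to 1456 intensity units and 0 saturated spots. Precision is limited by there being 8 arrays. One biopsy stood apart: on 5 mM replicate 1 the luminal and glandular epithelium markers averaged -3.01 (centred on the 8 arrays), and on the other 7 arrays 0.30 to 0.78. Its smooth muscle mean was 2.50, and 5 mM replicate 3 and 0 mM replicate 1 were also high, at 1.56 and 1.30, while the other 5 arrays lay between -1.53 and -0.84. In such bulk tissue, fewer cells of a type and less RNA per cell cannot be told apart. Without 5 mM replicate 1 the differences described below were 0.09 for PER1, -0.02 for PER2, -1.06 for PER3, 0.03 for NR1D1, 0.06 for DBP and 0.53 for HLF, and those of the other members stand beside their values.

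The comparison asked which transcripts differed in the endometrium 6 days after intrauterine methylglyoxal, and no clock gene passed its test. Of the 10 genes, 9 had the higher mean in cows given 5 mM and 1, PER3, the lower, with a median difference of 0.11 on the log2 scale, against 0.01 over all 12809 tested genes. Among the 19 tested clock probes 13 were higher, where 53.1% of all 31108 tested probes were, and the median was 0.09. In the limma test 0 of the 19 had an adjusted p under 0.05, as was the case for all tested probes (0%), and the adjusted p ranged from 0.913 to 0.999. At an unadjusted p under 0.05 there were also 0 of 19 clock probes, against 1.91% of all tested probes. Under other settings the unadjusted p was followed only for the brightest probe of each gene. Among these, only HLF had an unadjusted p under 0.05, in 6 of 19 alternative fits, and its adjusted p was not under 0.05 in any. No clock probe separated the 2 groups without overlap, which 1.51% of the probes measured on every array did. The plot of differences shows all 10 intervals.

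**Figure D1:**
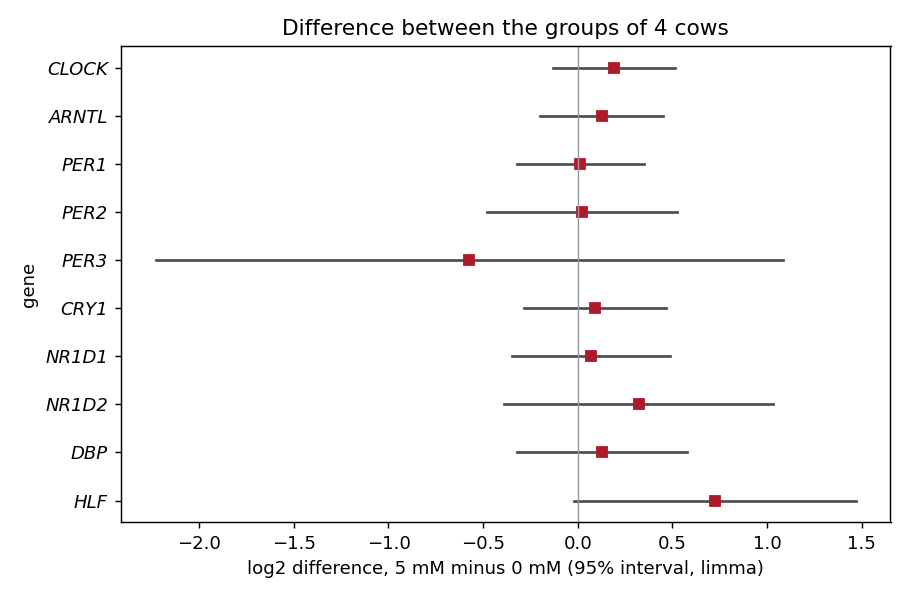
Difference of each clock gene between the groups of 4 cows. The x axis gives the log2 difference, 5 mM minus 0 mM, squares are limma estimates and lines are 95% intervals. Every interval includes 0. They are narrow for PER1, CLOCK and ARNTL and widest for PER3, which ran from -2.23 to 1.09.

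CLOCK, the DNA-binding partner of ARNTL and a histone acetyltransferase, was at -1.41, -1.69, -1.79 and -1.69 on 5 mM replicates 1 to 4 and at -1.89, -1.69, -1.95 and -1.83 on 0 mM replicates 1 to 4. The group values overlapped only through 0 mM replicate 2, which lay level with 5 mM replicates 2 and 4. Cows given 5 mM averaged -1.65 ± 0.16 and cows given 0 mM -1.84 ± 0.11. The difference of 0.19 ± 0.14 (SE) had a 95% interval of -0.13 to 0.51, which allows from 0.91 to 1.43 times the 0 mM level. The limma adjusted p was 0.913, and an exact two-sided permutation test gave p = 0.0857, where the smallest p that 4 against 4 can give is 0.0286. Without 5 mM replicate 1 the difference was 0.11. The LOC540334 probe, detected in 3 cows given 5 mM and 2 given 0 mM, differed by 0.43 ± 0.27 (SE). Over the 8 cows its Pearson's r with the LOC100300400 probe was only 0.26, or 0.50 without the 2 farthest cows.

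ARNTL, the obligate partner of CLOCK, had a single probe. It was at -1.33, -1.49, -1.55 and -1.15 in the 5 mM group and at -1.43, -1.46, -1.49 and -1.64 in the 0 mM group. The highest value belonged to 5 mM replicate 4 and the lowest to 0 mM replicate 4, and the other 6 cows lay within a narrow band. The difference was 0.13 ± 0.14 (SE; 95% interval -0.20 to 0.45; limma adjusted p = 0.913), and leaving out 5 mM replicate 4 gave 0.05, or 0.11 with 5 mM replicate 1 left out. From the lowest to the highest cow, the ARNTL level spanned 1.40-fold and the CLOCK level 1.45-fold.

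PER1, which encodes a repressor of CLOCK and ARNTL and is also induced by glucocorticoids, hardly differed between the group means. Its brightest probe was at 4.04, 4.21, 4.33 and 4.45 in the 5 mM group and at 4.23, 4.13, 4.19 and 4.43 in the 0 mM group. The values were interleaved, and the difference was 0.01 ± 0.15 (SE), with an interval of -0.32 to 0.35. The interval allows from 0.80 to 1.27 times the 0 mM level. The other 3 tested PER1 probes differed by -0.11, -0.14 and -0.07, and 2 of these 3 overlap each other in position. Across the cows, the brightest probe had a Pearson's r of 0.83, 0.06 and 0.71 with these 3 probes, and the value of 0.06 was 0.776 without the 2 farthest cows.

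PER2, another PER repressor, had nearly equal group means but an unequal spread. It was at -0.40, -0.54, -0.64 and -0.57 in the 5 mM group and at -1.01, -0.71, -0.52 and -0.0036 in the 0 mM group. The cows given 0 mM held both the lowest and the highest value, replicates 1 and 4, and all 4 cows given 5 mM lay between them. Cows given 5 mM averaged -0.54 ± 0.10 and cows given 0 mM -0.56 ± 0.42 (SD), and the difference was 0.02 ± 0.22 (SE; interval -0.48 to 0.52). The unequal spread itself was not tested. A second tested PER2 probe, well above background on 5 arrays, differed by 0.10 ± 0.45 (SE).

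PER3, the third PER gene, was the gene with the lower mean in the 5 mM group and with the widest spread. It was at -3.62, -4.41, -5.03 and -7.22 in the 5 mM group and at -4.64, -4.66, -5.00 and -3.71 in the 0 mM group. The value of 5 mM replicate 4 lay far below the rest, and that array was the 1 of 8 on which the probe was not well above background. The difference was -0.57 ± 0.72 (SE; interval -2.23 to 1.09; limma adjusted p = 0.913). It was 0.14 with 5 mM replicate 4 left out, and with normexp background correction, which compresses values near background, it was -0.02.

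CRY1, which encodes a cryptochrome that acts with the PER proteins, was at 0.95, 1.28, 1.27 and 1.32 in the 5 mM group and at 1.34, 1.03, 1.22 and 0.86 in the 0 mM group. The low cows were 5 mM replicate 1 and 0 mM replicate 4, the pair in which PER2 was highest. The difference was 0.09 ± 0.16 (SE; interval -0.28 to 0.47). It was 0.18 without 5 mM replicate 1, the biopsy with low epithelial markers, and 0.18 with the epithelium marker mean as a covariate. That mean was -3.01 on this array and 0.30 to 0.78 on the others. The covariate therefore mainly marks this cow and cannot separate epithelial content from it. The CRY1 difference was 0.0063 without 0 mM replicate 4, the other low cow, and 0.016 as the mean over both CRY1 probes. The second CRY1 probe differed by -0.06 ± 0.19 (SE).

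NR1D1 encodes REV-ERBα, a heme-binding repressor of ARNTL. It was at -2.88, -2.76, -3.18 and -3.14 in the 5 mM group and at -3.35, -3.17, -2.97 and -2.75 in the 0 mM group. As for PER2, the cows given 0 mM spanned the range, with replicate 1 lowest and replicate 4 highest. Cows given 5 mM averaged -2.99 ± 0.20 and cows given 0 mM -3.06 ± 0.26, and the difference was 0.07 ± 0.18 (SE; interval -0.35 to 0.49).

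NR1D2 encodes REV-ERBβ, the related receptor. Its brightest probe was at -3.52, -4.53, -4.32 and -4.79 in the 5 mM group and at -4.76, -4.60, -4.97 and -4.11 in the 0 mM group. The highest value, on 5 mM replicate 1, carried most of the difference of 0.32 ± 0.31 (SE; interval -0.39 to 1.03), which was 0.06 without that cow. It was 0.04 with the epithelium marker mean as a covariate and 0.16 with the smooth muscle mean. All 3 NR1D2 probes were tested and gave 0.32, 0.33 and 0.40, and over the 8 cows they correlated with Pearson's r between 0.78 and 0.84, or 0.42 to 0.66 without the 2 farthest cows of each pair.

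DBP, a direct target of CLOCK and ARNTL, was at 1.44, 1.11, 1.09 and 1.26 in the 5 mM group and at 0.85, 0.86, 1.104 and 1.56 in the 0 mM group. The cows given 0 mM again held both ends, replicates 1 and 2 at the bottom and replicate 4 at the top. The difference was 0.13 ± 0.19 (SE; interval -0.32 to 0.58) for this probe and -0.0017 ± 0.26 for the second DBP probe. Both DBP probes were well above background on all 8 arrays.

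HLF, the other PAR bZIP member, had the lowest unadjusted p of the 10 genes. It was at -5.22, -5.38, -6.41 and -6.14 in the 5 mM group and at -6.31, -6.38, -7.10 and -6.25 in the 0 mM group. Of the 4 cows given 5 mM, 3 lay above all cows given 0 mM, and 5 mM replicate 3 lay below 3 of them. The difference was 0.72 ± 0.32 (SE; interval -0.02 to 1.47), with p = 0.0555 before and 0.913 after adjustment in limma, and the exact two-sided permutation test gave p = 0.114. The unadjusted limma p was 0.0307 with quantile normalization, 0.0443 with a median shift, 0.0497 with slide as a block and 0.0185 with the replicate block, and 0.491 with normexp. The probe was well above background on only 2 arrays of cows given 5 mM and 3 of cows given 0 mM, and with normexp the difference was 0.11. The second HLF probe was not well above background on any array.

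**Figure D2:**
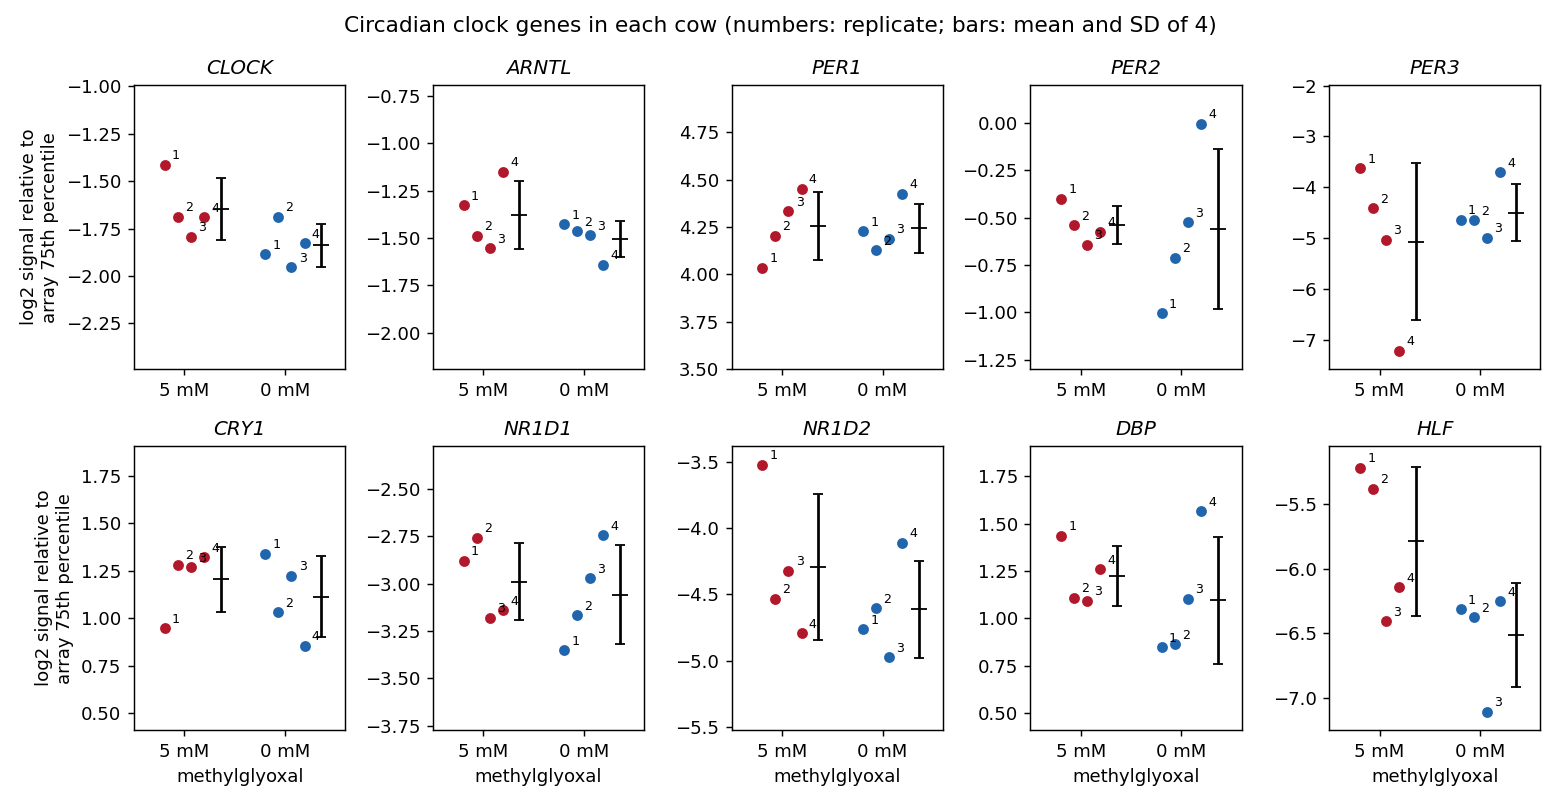
Levels of the 10 clock genes in each cow. The y axes give the log2 signal relative to the 75th percentile of the array, red points are cows given 5 mM and blue points cows given 0 mM, numbers are replicates, and bars show the mean and SD of 4 cows. The groups overlap for every gene, and for PER2, NR1D1 and DBP the 0 mM cows hold both the lowest value (replicate 1) and the highest (replicate 4).

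The slides on which the arrays were printed each held both groups, so the differences were also taken within slides. The first slide carried 5 mM replicate 1 and 0 mM replicate 1, the second 5 mM replicate 2 with 0 mM replicates 2 and 3, and the third 5 mM replicates 3 and 4 with 0 mM replicate 4. The DBP difference was 0.59, 0.13 and -0.39 within slides 1, 2 and 3. PER2 gave 0.61, 0.08 and -0.60, NR1D1 gave 0.47, 0.31 and -0.41, and NR1D2 gave 1.25, 0.26 and -0.45. HLF gave 1.09, 1.36 and -0.02, PER3 gave 1.02, 0.41 and -2.42, and CRY1 gave -0.39, 0.16 and 0.44. PER1 gave -0.19, 0.05 and -0.03 and ARNTL 0.10, -0.01 and 0.29. The sign thus turned between slides for 9 of the 10 genes, for ARNTL and HLF only through values of -0.01 and -0.02. For CLOCK, at 0.47, 0.13 and 0.08, it did not turn. The share of all tested probes whose sign turned was not taken, and each slide held only 1 or 2 cows per group. With slide as a block the differences were 0.21 for CLOCK and 0.78 for HLF, and none of the 10 genes passed the adjusted threshold.

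The clock genes differed in how much they varied between cows. Over all 8 cows, the SD of the brightest probes of the 10 genes had a median of 0.24, against 0.35 for all tested probes, and 7 of the 10 lay in the lower part of that distribution, under its 50th percentile. Of the 19 tested clock probes, dimmer ones included, 12 did. The brightest probes of the other genes were not compared, so the part of brightness in these low percentiles was not tested. PER1 (SD 0.14, percentile 6.54), ARNTL (0.15, percentile 7.33) and CLOCK (0.17, percentile 10.3) varied least. NR1D2, HLF and PER3 had the highest SD, at percentiles 64.7, 75.1 and 91.1. NR1D2 spanned 2.74-fold from the lowest to the highest cow. The lowest HLF value (0 mM replicate 3) and the lowest PER3 value (5 mM replicate 4) were below the lowest signal marked well above background on their arrays, so their spans are bounds, at least 2.40-fold for HLF and at least 7.23-fold for PER3 against that signal. PER2 spanned 2.0-fold, DBP 1.64-fold, NR1D1 1.52-fold, CRY1 1.40-fold and PER1 1.34-fold.

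The brightest probes of PER2 and DBP varied together from cow to cow by Pearson's r. Over the 8 cows, all 45 pairs of the 10 genes were correlated, and p-values came from exact two-sided permutation tests, adjusted over the 45. Signs were positive for 27 pairs and negative for 18. PER2 and DBP had a Pearson's r of 0.907 (exact permutation p = 0.000546, adjusted p = 0.0246) and a Spearman's rho of 0.905 (exact permutation p = 0.00456, adjusted p = 0.103). This was the 1 pair to pass adjustment by Pearson's r, and none passed by Spearman's rho. Pairs among other genes were not correlated, so how often such values arise on these arrays was not tested. Without the 2 cows farthest from the median of PER2, r was 0.878. With values centred on group means r was 0.932, and with values centred on slide means it was 0.963. Slides held 2 or 3 arrays, too few for a correlation within each. Centring on them leaves fewer independent values, and the 2 arrays of the first slide become mirror images. A higher r after slide centring is therefore not stronger evidence. Leaving out each cow in turn gave 0.841 to 0.931. Agreement between probes of the same gene was limited. The 2 tested PER2 probes correlated at r = 0.78, or 0.30 without the 2 farthest cows. For the 2 DBP probes r was 0.76, or 0.27 without the 2 farthest cows. The dimmer PER2 probe was not tested against DBP.

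PER2 and NR1D1 had a Pearson's r of 0.842 (exact permutation p = 0.00422, adjusted p = 0.0949) and a rho of 0.905 (exact permutation p = 0.00456, adjusted p = 0.103). NR1D1 and DBP had an r of 0.721 (exact permutation p = 0.0461, adjusted p = 0.302) and a rho of 0.857 (exact permutation p = 0.0107, adjusted p = 0.161). Neither pair passed adjustment. Without the 2 farthest cows r was 0.717 for PER2 with NR1D1 and 0.782 for NR1D1 with DBP. With values centred on slide means it was 0.924 and 0.938, under the limit of slide centring given above. In all 3 genes 0 mM replicate 4 was at the top and 0 mM replicate 1 at the bottom, and without 0 mM replicate 4 r was 0.841 for PER2 with DBP, 0.820 for PER2 with NR1D1 and 0.594 for NR1D1 with DBP. The second DBP probe, a choice made after seeing the data, had an r of 0.769 with PER2 (exact permutation p = 0.0144) and 0.873 with NR1D1 (exact permutation p = 0.00702), both unadjusted.

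**Figure D3:**
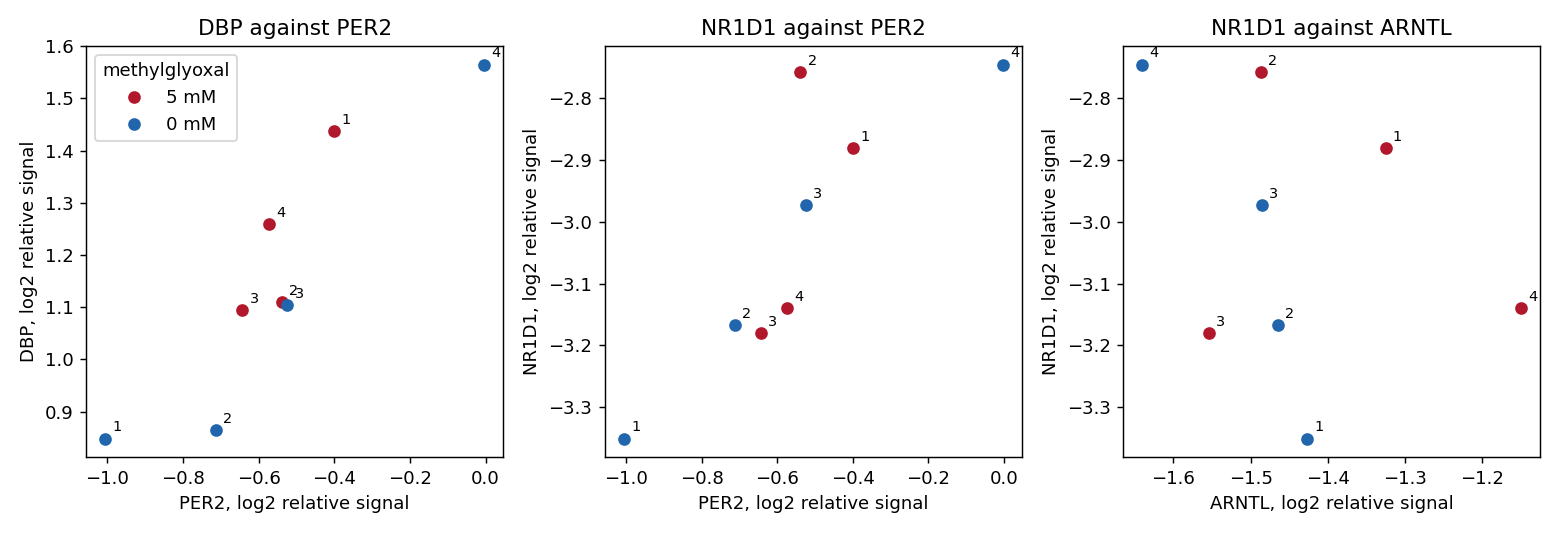
Pairs of clock genes over the 8 cows. Each axis gives the log2 signal of the gene relative to the 75th percentile of the array, red points are cows given 5 mM and blue points cows given 0 mM, and numbers are replicates. DBP and NR1D1 against PER2 gave r = 0.907 and 0.842, with 0 mM replicates 1 and 4 at the ends, while NR1D1 against ARNTL shows a loose scatter (r = -0.307).

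ARNTL and NR1D1, chosen because the product of NR1D1 represses ARNTL, had a Pearson's r of -0.307 (exact permutation p = 0.471, adjusted p = 0.690) and a rho of -0.333 (exact permutation p = 0.428, adjusted p = 0.642). Repression alone does not fix the sign over cows whose hour of biopsy is not given. The sign was negative, but without the 2 cows farthest from the ARNTL median, 5 mM replicate 4 and 0 mM replicate 4, r was 0.192, and with normexp it was 0.013. Without 0 mM replicate 4 alone it was -0.043, and without 5 mM replicate 4 alone -0.232. With all 8 cows kept, it was -0.059 after quantile normalization and -0.0069 after a median shift. The value thus changed with the cows kept and with the scaling. Pearson's r of ARNTL with the other members ran from -0.66 with PER3 to 0.46 with CLOCK, and none of the 9 pairs with ARNTL had a Pearson p under 0.05 in the exact permutation test.

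Of the 7 pairs with an unadjusted Pearson p under 0.05, the other 4 did not pass adjustment, and 3 were weaker and 1 turned sign without the 2 farthest cows. The share of such pairs among other genes was not taken, so 7 of 45 cannot be called particular to the clock genes. CLOCK and HLF had an r of 0.838 (exact permutation p = 0.0101, adjusted p = 0.152), which was 0.458 without the 2 farthest cows. CLOCK and NR1D2 had an r of 0.733 (exact permutation p = 0.0454, adjusted p = 0.302), which was 0.239 without 5 mM replicate 1 and -0.254 without the 2 farthest cows. CRY1 ran against PER2 at -0.730 (exact permutation p = 0.0233, adjusted p = 0.262) and against NR1D2 at -0.694 (exact permutation p = 0.0470, adjusted p = 0.302), and these were -0.246 and -0.097 without the 2 farthest cows.

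**Figure D4:**
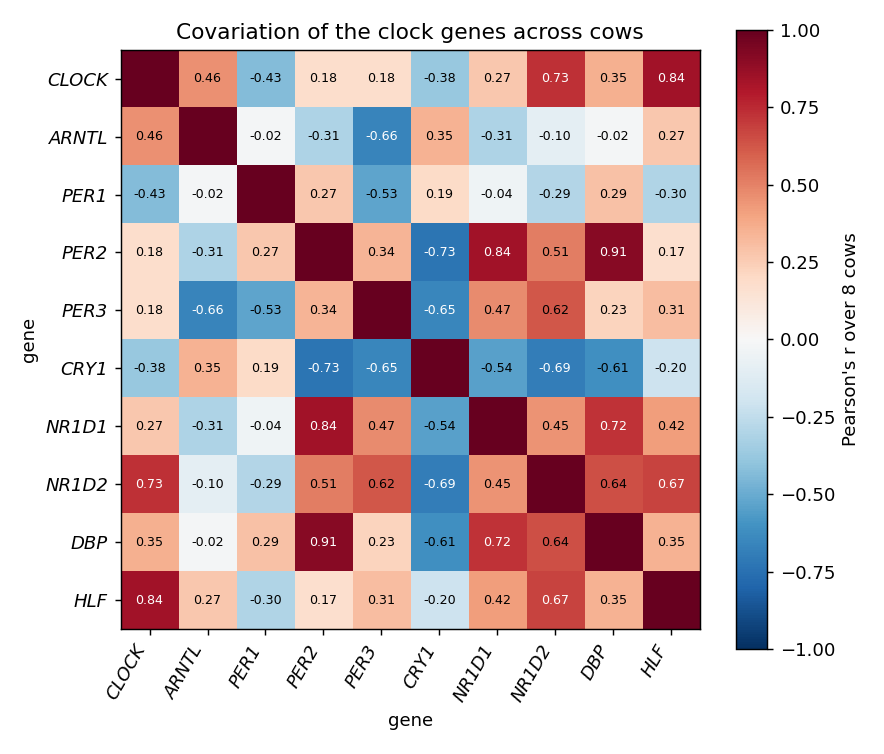
Pearson's r over the 8 cows for every pair of the 10 clock genes, from -1 (blue) to 1 (red), ordered by role. High values are those of PER2 with NR1D1 (0.84), PER2 with DBP (0.91), NR1D1 with DBP (0.72) and CLOCK with HLF (0.84). Of these, only PER2 with DBP passed adjustment. CRY1 is negative with every gene except PER1 and ARNTL.

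The genes whose pattern over the 8 arrays was most like that of ARNTL, by Pearson's r among 12408 genes, were ATXN2 (0.94), SDR39U1 (0.90), SSH2 (0.88), COX15 (0.87) and ASB7 (0.87). For NR1D1 they were RYBP (0.98), UBE3B (0.93), EHMT2 (0.93), GRK3 (0.93) and PIK3R1 (0.93). These are the highest of many values over 8 arrays that share their scaling, and they are given as a description.

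Other genes of the clock gave a like picture. Of 25 listed, 20 had a tested probe, and 13 of these were higher and 7 lower in the 5 mM group, with a median of 0.08 and 0 past the adjusted threshold. Genes with low unadjusted p values included FBXL21 (0.41 ± 0.19, SE), which encodes an F-box protein that acts on the cryptochromes, NONO (0.29 ± 0.20), a partner of the PER proteins, and CSNK1E (-0.79 ± 0.54), a casein kinase that phosphorylates PER proteins. NPAS2, which can take the place of CLOCK, differed by 0.23 ± 0.45, and RORA, an activator of ARNTL that competes with the REV-ERB receptors, by 0.10 ± 0.26. NFIL3, a repressor at the sites that DBP and HLF bind, differed by 0.81 ± 0.78, and BHLHE40, an E-box repressor, by -0.23 ± 0.26. With 5 mM replicate 1 left out, 11 were higher and 9 lower (median 0.02), and NFIL3 gave 0.25, CSNK1E -0.25, NONO 0.13, NPAS2 -0.15, RORA -0.04 and BHLHE40 -0.03. CRY2, CIART and TEF had no tested probe under those symbols. RORB, a nuclear receptor of the same family as RORA, stood at -3.98 in the cow given 5 mM as replicate 1, while the other 7 cows had 1.33 to 2.30, and it was singled out after its values were seen.

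Output genes of the clock had lower means in the 5 mM group in 7 of 7 tested cases, of 10 listed, with a median of -0.27 and 0 past the adjusted threshold. With 5 mM replicate 1 left out, the biopsy with low epithelial markers, 4 were lower and 3 higher and the median was -0.07. The 3 that turned were USP2 (0.11, against -0.46 with all cows), PPARA (0.30, against -0.21) and NAMPT (0.0049, against -0.27), named after their values were seen. The lowest p values belonged to KLF10 (-0.19 ± 0.13, SE), a Krüppel-like factor gene, the nuclear receptor gene PPARD (-0.29 ± 0.23), WEE1 (-0.26 ± 0.24), a kinase that holds back mitosis, and BHLHE41 (-0.35 ± 0.37), an E-box repressor that is also in the list of clock genes. WEE1 gave -0.07 and BHLHE41 -0.09 when that cow was left out. Glucocorticoid and progesterone responsive genes, listed because PER1 is a glucocorticoid target, were higher in 2 and lower in 5 of 7 tested cases, with a median of -0.31. Those with the lowest p were TSC22D3 (-0.35 ± 0.33), DUSP1 (-0.34 ± 0.33), ERRFI1 (-0.31 ± 0.33) and SGK1 (-0.36 ± 0.45). Leaving out 5 mM replicate 1 gave -0.05 for TSC22D3, -0.06 for SGK1, -0.19 for DUSP1 and -0.58 for ERRFI1, and a median of -0.06. Leaving out 0 mM replicate 3 gave -0.05 for both SGK1 and the median. Immediate early genes, which like PER1 can be induced rapidly, were higher in 2 and lower in 7 of 9 tested cases (median -0.39), among them JUNB (-0.64 ± 0.38), IER2 (-0.40 ± 0.23), NR4A1 (-0.35 ± 0.21) and FOS (-1.14 ± 0.89). The FOS and JUNB values rested largely on 0 mM replicate 2, and with that cow left out they were -0.16 and -0.26 and the median of the list was -0.24. In limma 0 genes of these 3 lists passed the adjusted threshold and 0 had an unadjusted p under 0.05, where over all tested genes 6625 were higher and 6184 lower.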

How the data were processed

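Total RNA of 8 biopsies was labelled with Cy3 and hybridised to one-colour Agilent arrays, per the labels' protocols. The deposited files hold background-subtracted spot intensity values on a linear scale, which the authors made with Agilent Feature Extraction. Its version is 11.5.1.1 by the file headers, whereas the submitters' processing notes name 10.5.1.1. The deposited value table holds log2 values, which correlated (r of at least 0.9995 across probes) with log2 intensities shifted to the 75th percentile with each probe's median over the 8 arrays taken off. Its largest single difference from them was 0.896, the medians of its columns were 0.13, -0.0049, -0.011 and 0.013 (5 mM replicates 1 to 4) and -0.016, -0.023, 0.00088 and -0.0062 (0 mM replicates 1 to 4), and it served only as an alternative.

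Control spots and outlier-marked spots were left out, log2 processed intensities were averaged per probe, and the array's log2 75th percentile was subtracted. Probes marked well above background in 4 or more cows were tested, 31108 in all, with 461 missing values, none of them imputed. Of these, 25410 had a symbol from the files or from a RefSeq table of assembly ARS-UCD2.0. The test was limma's (version 3.58.1, lmFit and eBayes, R 4.3.3), Benjamini-Hochberg adjusted across every tested probe at 0.05, a procedure tried first on simulated data. Permutation tests (numpy 2.4.6, with ranks from scipy 1.17.1) enumerated all 70 arrangements or all 40320 pairings of the cows. The number of arrays limits the precision, and the median SE over the 10 clock genes was 0.19.

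The members and lists were chosen with earlier results of these data known. By rule all 10 clock genes were named, with the 4 lowest-p genes of each of 4 lists (other clock genes, clock-controlled output genes, glucocorticoid and progesterone responsive genes, immediate early genes), CRY2, NPAS2, RORA, NFIL3, TEF, BHLHE40 and CIART, and the 5 genes most like ARNTL and NR1D1. The result of 1 gene named by this rule is not reported here. Markers of 10 cell types were listed as well. Same-numbered cows correlated at 0.40, 0.36, -0.30 and 0.31 in their deviations from the group means. For 5 mM replicates 1, 2 and 4 the same-numbered cow was the closest match, and it lay on the same slide. For replicate 3 it was not the closest match and lay on another slide. A pairing by number and a shared slide cannot be told apart here. The main fit used no pairing, and the replicate block was an alternative. Alternatives were normexp (offset 50), quantile normalization, scaling to the median, the deposited table, no filter or detection required in all 8 cows, eBayes with trend and robust options, array weights, slide and replicate blocks, within-slide differences, the mean over probes, a threshold of 0.1, and each cow left out. Marker means as covariates, correlations of all pairs on centred values or without single cows, the second DBP probe, and gene lists without each cow were added after seeing the data.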

Additional observations from a re-analysis of the deposited data

Results flagged for a closer look

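In 5 of the 40 groups of 4 values examined, covering the 10 clock genes and the 10 marker means, 1 cow lay farther from its group than Dixon's critical value of 0.829 allows. Chance marks about 1 in 20 groups. For CRY1 it was 5 mM replicate 1 at 0.95, where the other cows given 5 mM had 1.27 to 1.32. For HLF it was 0 mM replicate 3 at -7.10, where the other cows given 0 mM had -6.38 to -6.25. The luminal and glandular epithelium marker mean was -3.01 on 5 mM replicate 1, where all 15 tested markers of 16 listed had the lower mean in the 5 mM group (median -0.98), and the T and NK cell marker mean was -1.22 on the same array. In the other cows given 5 mM the luminal and glandular mean was 0.30 to 0.49, within the 0.30 to 0.78 of the cows given 0 mM. The stromal fibroblast marker mean was -0.35 on 0 mM replicate 2. How far the makeup of the biopsy bears on CRY1 was not tested, since the epithelium covariate mainly marks 5 mM replicate 1.

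Over the other marker lists, the number with the higher mean in the 5 mM group was 13 of 14 for smooth muscle (median difference 1.098), 0 of 9 for ciliated epithelium (-0.78), 6 of 10 for stromal fibroblasts (0.04), 4 of 8 for endothelium (-0.12), 2 of 12 for T and NK cells (-0.76), 0 of 6 for B and plasma cells (-1.00), 0 of 9 for macrophages and dendritic cells (-0.65), 1 of 2 for adipocytes (0.02) and 1 of 5 for nerve and Schwann cells (-0.39). These counts include 5 mM replicate 1, and they were not taken without it. Its means were the lowest of all arrays for ciliated epithelium (-2.15), T and NK cells (-1.22) and nerve and Schwann cells (-1.04). They were also the lowest for macrophages and dendritic cells (-0.88) and endothelium (-0.36). For smooth muscle (2.50), stromal fibroblasts (0.77) and adipocytes (0.35) they were the highest. For T and NK cells the other cows given 5 mM had -0.02, -0.09 and 0.03, and the cows given 0 mM -0.36 to 0.84. For B and plasma cells it was the highest 5 mM array, at 0.11. No marker passed the adjusted threshold in limma, and 3 had an unadjusted p under 0.05. The part of these markers in the clock gene values was not tested. With the smooth muscle and epithelium covariates the HLF difference was 0.67 and 0.52 and the CLOCK difference 0.18 and 0.11. Leaving out 5 mM replicate 1, which the epithelium covariate mainly marks, gave 0.53 for HLF and 0.11 for CLOCK.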

How the results depend on the processing

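No clock probe and no probe of the whole table passed the adjusted threshold under any alternative, except that at a threshold of 0.1 without 5 mM replicate 2 the whole table gave 1 probe. Probes with an unadjusted p under 0.05 numbered 595, against 1026 with slide as a block, 1221 with a replicate block, 1065 without the filter, and 376 (without 5 mM replicate 3) to 1528 (without 5 mM replicate 2) when 1 cow was left out. The replicate block gave 0 calls. Each replicate number held 1 cow of each group, so this block could not change a clock gene difference (0.72 for HLF, 0.19 for CLOCK). Differences near 0 turned sign. PER1 was -0.034 with quantile normalization, -0.028 with normexp and -0.047 with slide as a block, and -0.051 to 0.088 without each cow. PER2 was -0.092 with array weights, -0.026 with slide as a block, -0.036 with the epithelium covariate, and -0.13 to 0.21 without each cow. NR1D1 was -0.0081 with array weights and -0.027 to 0.17 without each cow, and PER3 was -1.06 to 0.14 without each cow. CLOCK, ARNTL, CRY1, NR1D2, DBP and HLF were higher in the 5 mM group in every fit over all slides, with HLF between 0.11 and 0.93. Among these fits, those that changed only the filter, the eBayes options or the replicate block repeat the main difference by construction. HLF had an unadjusted p under 0.05 in 6 of 19 fits, also without 5 mM replicate 3 (0.0206) and 4 (0.0491), and an adjusted p under 0.05 in 0. CRY1 ranged from 0.0063 to 0.20. The correlation of ARNTL with NR1D1 was 0.013 with normexp, -0.059 with quantile normalization, -0.0069 with a median shift, 0.192 without the 2 cows farthest from the ARNTL median, and -0.433 to -0.043 without each cow. The cause of these changes was not tested. For PER3 and HLF, requiring detection on all 8 arrays left no probe to test. Signal over background limits PER3 and HLF.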
